A study of Mus musculus with 12 samples.

Results

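RNA from scrapings of proximal ileal epithelium was compared between male C57BL/6 mice gavaged with 30 µg/kg and with 10 µg/kg TCDD, a chlorinated dioxin, 3 libraries at each dose, to describe what the top dose added once targets of the aryl hydrocarbon receptor (AhR) were already induced. These 6 libraries were chosen by their dose labels out of 12 in the series, and the other 6 (3 of sesame oil vehicle and 3 of 3 µg/kg) entered the fit and are given as background. The mice received TCDD in sesame oil orally every 4 days, 7 times, beginning at 28 days of age. Tissue was taken at 56 days of age, on day 28 of the study. The labels do not say that each library came from a separate animal, so p-values describe the spread between libraries, which may be technical in part. In such bulk samples fewer cells of a type and less RNA per cell cannot be told apart.

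TCDD binds the AhR, a ligand-activated transcription factor of the cytosol. The bound receptor moves to the nucleus, pairs with ARNT and binds dioxin response elements, whose core is GCGTG. Its best known targets include the cytochromes P450 Cyp1a1, Cyp1a2 and Cyp1b1, which oxidize aromatic compounds, together with Ahrr, a repressor that competes with the receptor, and Tiparp, a mono-ADP-ribosyltransferase that limits receptor activity. In the intestine the receptor is expressed in epithelium and in immune cells of the mucosa, where it responds to dietary and microbial ligands.

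Libraries of 10 µg/kg held 13713866 to 15733850 gene counts, and those of 30 µg/kg held 11695887 to 19882816. Levels below are CPM, counts scaled to library size with trimmed-mean (TMM) factors, and a floor of 3 counts in the shallowest library at 30 µg/kg equaled 0.266 CPM. Reads aligned to more than 1 place made up 31.9% to 34.2% of entries at 10 µg/kg and 36.2% to 38.8% at 30 µg/kg, without overlap. A score of circadian clock genes was positive in 1 of 3 libraries at 10 µg/kg and in 2 of 3 at 30 µg/kg. Enterocyte markers were high in all 6 libraries, with Fabp2, a fatty acid-binding protein, between 2356 and 3686 CPM and sucrase-isomaltase (Sis) between 4517 and 7368 CPM. The distal ileum markers Fabp6 and Fgf15 were at or near 0. Fabp6, the ileal bile acid-binding protein, did not exceed 0.306 CPM and Fgf15 had no count in any of the 6 libraries. All 10 listed genes of ileal bile acid handling together summed to 313 to 511 CPM in these libraries, so other members were present.

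The promoters of 4 AhR targets are shown with the bases before the RefSeq transcript start (GRCm38.p6), each 250 bases long and written 5′ to 3′, with GCGTG or its complement CACGC in capitals. Among the best known targets named above, these 4 held the core of the response element in this window. Cyp1a2 did not and is not shown, so the core in each printed window follows from which were printed.
Cyp1a1 (chr9:57697363-57697612, plus strand): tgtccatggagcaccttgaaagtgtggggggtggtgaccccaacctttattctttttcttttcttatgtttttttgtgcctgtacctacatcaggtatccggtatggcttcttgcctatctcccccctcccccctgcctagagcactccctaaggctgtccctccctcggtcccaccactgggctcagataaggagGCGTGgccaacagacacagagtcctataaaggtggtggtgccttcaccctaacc
Cyp1b1 (chr17:79715062-79715311, minus strand): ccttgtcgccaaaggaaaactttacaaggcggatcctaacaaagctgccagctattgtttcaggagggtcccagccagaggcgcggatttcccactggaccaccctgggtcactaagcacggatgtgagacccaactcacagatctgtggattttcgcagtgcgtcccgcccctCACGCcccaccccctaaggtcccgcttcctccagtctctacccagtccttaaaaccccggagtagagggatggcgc
Ahrr (chr13:74292332-74292581, minus strand): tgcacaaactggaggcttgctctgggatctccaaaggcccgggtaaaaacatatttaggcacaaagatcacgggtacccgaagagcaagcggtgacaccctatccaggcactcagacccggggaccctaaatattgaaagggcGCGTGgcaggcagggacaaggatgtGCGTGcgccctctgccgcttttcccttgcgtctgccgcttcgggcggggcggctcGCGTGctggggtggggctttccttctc
Tiparp (chr3:65528197-65528446, plus strand): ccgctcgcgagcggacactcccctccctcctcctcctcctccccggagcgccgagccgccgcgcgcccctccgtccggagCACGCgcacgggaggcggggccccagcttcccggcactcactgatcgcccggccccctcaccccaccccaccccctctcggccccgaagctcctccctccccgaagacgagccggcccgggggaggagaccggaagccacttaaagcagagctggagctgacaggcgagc

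Ahrr held 3 matches in this window and the other 3 promoters held 1 each. The motif was found on either strand in 28.2% of all 32851 promoter windows of this length and in 42.6% of those of genes tested, so a match alone is common. Of 11 AhR list members with a promoter entry, 7 held it. The windows of Cyp1a2, Nqo1, Ugt1a6a and Nfe2l2 held none, which says only that these letters are not there. Of the 343 genes higher at 30 µg/kg 189 had a promoter entry, and of the 96 lower 50 had one. Both were below 80%, so the shares of their windows with the motif, 46.7% and 34.5%, describe only part of these genes. Entries also covered only 10893 of the 15823 genes tested.

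Some of the AhR targets were higher at 30 than at 10 µg/kg. Of 15 genes listed as receptor, partners and targets, 13 passed the filter on low counts, and 4 were called higher than at 10 µg/kg and none lower. A gene was called when edgeR's quasi-likelihood test gave a Benjamini-Hochberg adjusted p under 0.05 and the change was at least 1.5-fold. By this rule 2.77% of all 15823 genes tested were called, 2.17% higher and 0.607% lower. The median log2 change of the 13 was 0.25, beside 0.01 over all genes tested. The 4 called were Cyp1b1, Ahrr, Tiparp and Cyp1a2.

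Cyp1b1 (chr17:79701537-79715061) measured 52.4, 45.9 and 45.9 CPM at 10 µg/kg and 114, 93.0 and 102 CPM at 30 µg/kg. All 3 libraries at the higher dose lay above all 3 at the lower dose, and vehicle lay between 1.35 and 2.64 CPM. The rise was 2.15-fold, a log2 change of 1.10 ± 0.17 (SE, n = 3 per group), with an edgeR adjusted p of 0.00382. This call was kept in each of the 15 other settings tried.

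Ahrr (chr13:74211118-74292331) was at 21.9, 29.7 and 30.4 CPM at 10 µg/kg and at 58.1, 42.4 and 56.1 CPM at 30 µg/kg, with vehicle at 2.48 to 4.26 CPM. Its groups did not overlap, and the log2 change was 0.94 ± 0.18 (edgeR adjusted p 0.0130). The call was lost when replicate 2 of 10 µg/kg, or replicate 1 or 3 of 30 µg/kg, was left out.

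Tiparp (chr3:65528410-65555518) stood at 61.4, 63.9 and 56.8 CPM at 10 µg/kg and at 101, 110 and 92.6 CPM at 30 µg/kg. Vehicle libraries held 36.7 to 41.5 CPM, and all 3 libraries at 30 µg/kg lay above the other groups. The log2 change was 0.74 ± 0.14 (edgeR adjusted p 0.0105). An annotated antisense gene overlaps it, and without a stated strand setting reads of the pair cannot be told apart.

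Cyp1a1 (chr9:57687928-57703824) was the most abundant of the targets per length, at 386 and 1070 CPM per kb of exon at 10 and 30 µg/kg. Single libraries held 1333, 1019 and 872 CPM at 10 µg/kg and 3088, 3251 and 2608 CPM at the higher dose, again without overlap, against 19.0 to 27.5 CPM in vehicle. The fitted change was 2.77-fold (log2 1.47 ± 0.44), yet the edgeR adjusted p was 0.0795 and the gene was not called. It was called in 4 other settings, namely without a filter on low counts, in the 6 libraries alone, with clock gene expression as covariate and in DESeq2. Over all 15 settings its adjusted p ran from 0.00252 to 0.233.

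Cyp1a2 (chr9:57676937-57683703), the sister gene of Cyp1a1, was near the floor. It had 3, 4 and 7 counts at 10 µg/kg and 27, 20 and 33 counts at 30 µg/kg, that is 0.216 to 0.429 and 1.38 to 1.81 CPM. Vehicle libraries held 0.788 to 2.31 CPM, so the level at 30 µg/kg lay inside the vehicle range. The log2 change from 10 to 30 µg/kg was 2.35 ± 0.50 (edgeR adjusted p 0.0264), and the call was lost whenever any 1 of the 6 libraries was left out.

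The remaining members of the AhR list did not pass the test. The receptor Ahr had 26.7 to 38.8 CPM at 10 µg/kg and 29.7 to 40.5 CPM at 30 µg/kg, and Nqo1, a quinone reductase, had 17.5 to 25.7 and 21.5 to 29.1 CPM, so both overlapped between doses. The glucuronosyltransferases Ugt1a6a and Ugt1a6b overlapped as well, with log2 changes of 0.20 ± 0.23 and 0.25 ± 0.25, and share over 50% of their sequence with other Ugt1a genes. The partner Arnt was lower without overlap (log2 change −0.22 ± 0.08, adjusted p 0.143) and Nfe2l2, the oxidant-response factor NRF2, higher without overlap (0.28 ± 0.08, adjusted p 0.0731). Lpcat2 overlapped between doses. Aldh3a1 and Fgf21 did not pass the filter, with at most 1 count in any of the 6 libraries.

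**Figure D1:**
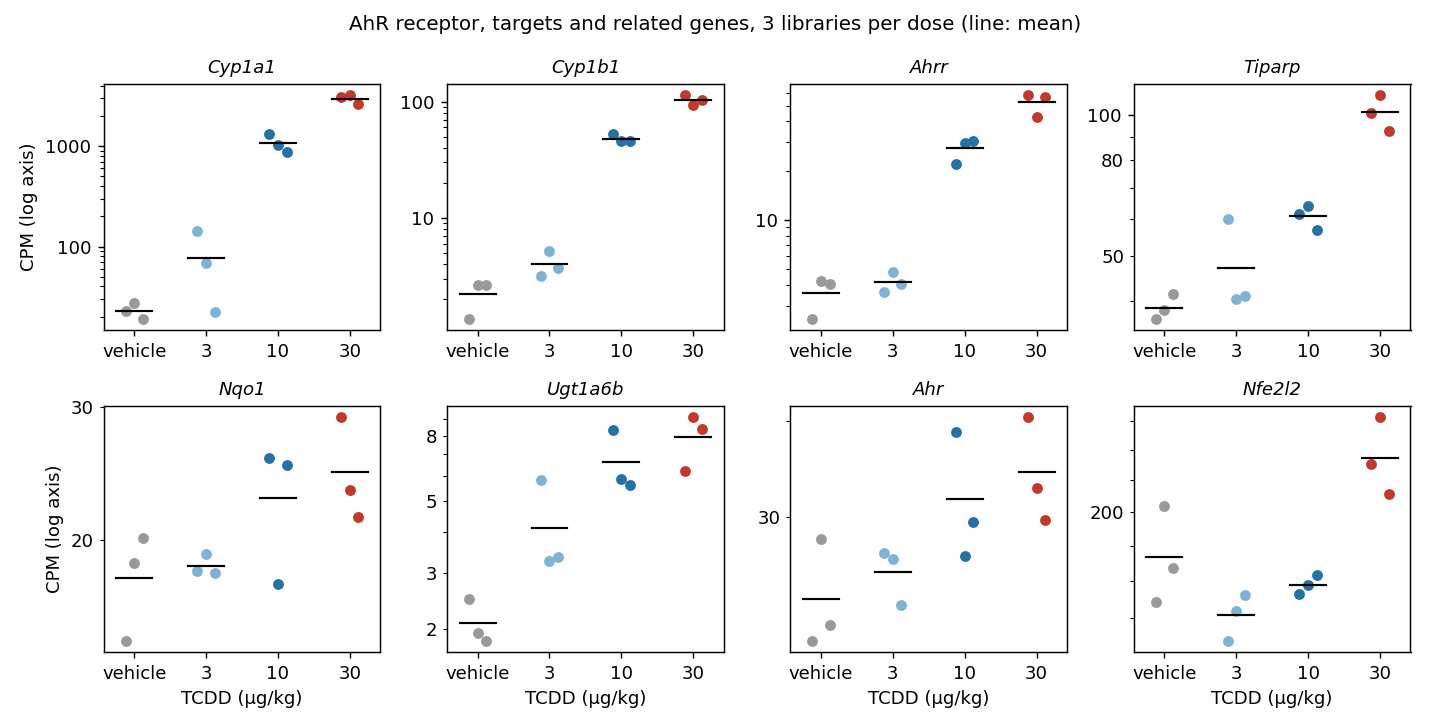
CPM on a log axis against TCDD dose for 8 genes of the AhR list, with 1 point per library (3 per dose) and a line at the mean. Cyp1a1, Cyp1b1, Ahrr, Tiparp and Nfe2l2 lie higher in all 3 libraries at 30 µg/kg than in all 3 at 10 µg/kg, while Nqo1, Ugt1a6b and Ahr overlap.

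Beyond this list, few genes rose at both steps. Of the 343 genes higher at 30 than at 10 µg/kg, 11 had also been called higher at 10 µg/kg against vehicle, 15 had been called lower there and 317 had not been called. The 11 comprised Cyp1b1, Ahrr, Acta1, Ildr1, Cuedc1, Pmm1, the ribosomal protein genes Rpl27, Rpl39 and Rps23, and the noncoding 2010007H06Rik and 2610035D17Rik. The comparison of 10 µg/kg with vehicle called 0.613% of genes, and that of 30 µg/kg with vehicle called 3.97%. All 3 comparisons share libraries, so the values are given side by side without a measure of likeness.

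Several of these genes were named because they passed at both steps, after their values were seen. Ildr1, a receptor of tricellular junctions, had 18.6, 22.6 and 22.7 CPM at 10 µg/kg and 38.2, 32.7 and 44.0 CPM at 30 µg/kg, with 2.15 to 4.00 CPM in vehicle. Cuedc1 had 8.93, 9.87 and 9.74 CPM and then 18.9, 26.8 and 20.7 CPM, a log2 change of 1.21 ± 0.16 (edgeR adjusted p 0.00137). Pmm1, a phosphomannomutase, had 8.42 to 9.55 CPM and then 12.6 to 17.4 CPM. In each of them the 2 groups were apart and vehicle lay lowest, which follows largely from that choice.

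Acta1, the skeletal muscle form of alpha-actin, rose at both steps by larger folds. It measured 25.9, 25.8 and 41.3 CPM at 10 µg/kg and 122, 197 and 77.0 CPM at 30 µg/kg, while vehicle held 2.00 to 5.25 CPM. The log2 change between doses was 2.08 ± 0.35 (edgeR adjusted p 0.00566). It was the only called member of 6 skeletal muscle genes tested. Of these genes 4 had positive and 2 negative changes, 2 had an unadjusted p under 0.05 and the median log2 change was 0.68. Other listed genes, Actc1, Myh1, Myh2, Myh4, Mb and Pvalb, had no count in these 6 libraries or in vehicle. An antisense gene overlaps Acta1.

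Across the genome the top dose added far more rises than falls. Of the 439 genes called, 343 were higher and 96 lower, with 742 genes at an adjusted p under 0.05 and 3324 at an unadjusted p under 0.05. Groups were apart in 342 of the 343 and in all 96, where 28.2% of all genes tested showed no overlap. A call makes such separation likely, so it is not a separate result. The rises had a median log2 change of 1.00, and 170 were at least 2-fold and 40 at least 4-fold. Of the falls 47 were at least 2-fold and 24 at least 4-fold, with a median of −0.92. Leaving out replicate 2 of 10 µg/kg gave 188 calls, leaving out replicate 3 of 10 µg/kg gave 288 and leaving out replicate 2 of 30 µg/kg gave 238.

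Most rises set the top dose apart from every other library. In 285 of the 343 genes all 3 libraries at 30 µg/kg lay above the other 9, including vehicle and 3 µg/kg, a position held by 962 of all genes tested. Against vehicle, 209 of the 343 were called higher at 30 µg/kg and 134 were not called. Of the 96 falls, 20 were called lower than vehicle, 2 were called higher and 74 were not called. In 53 of the 96 all libraries at 30 µg/kg lay below the other 9, and in 27 the 3 libraries at 10 µg/kg lay above the other 9. Over all genes tested these positions were held by 771 and 86. The positions of rises and falls follow in part from the calls, which themselves compare 30 with 10 µg/kg.

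**Figure D2:**
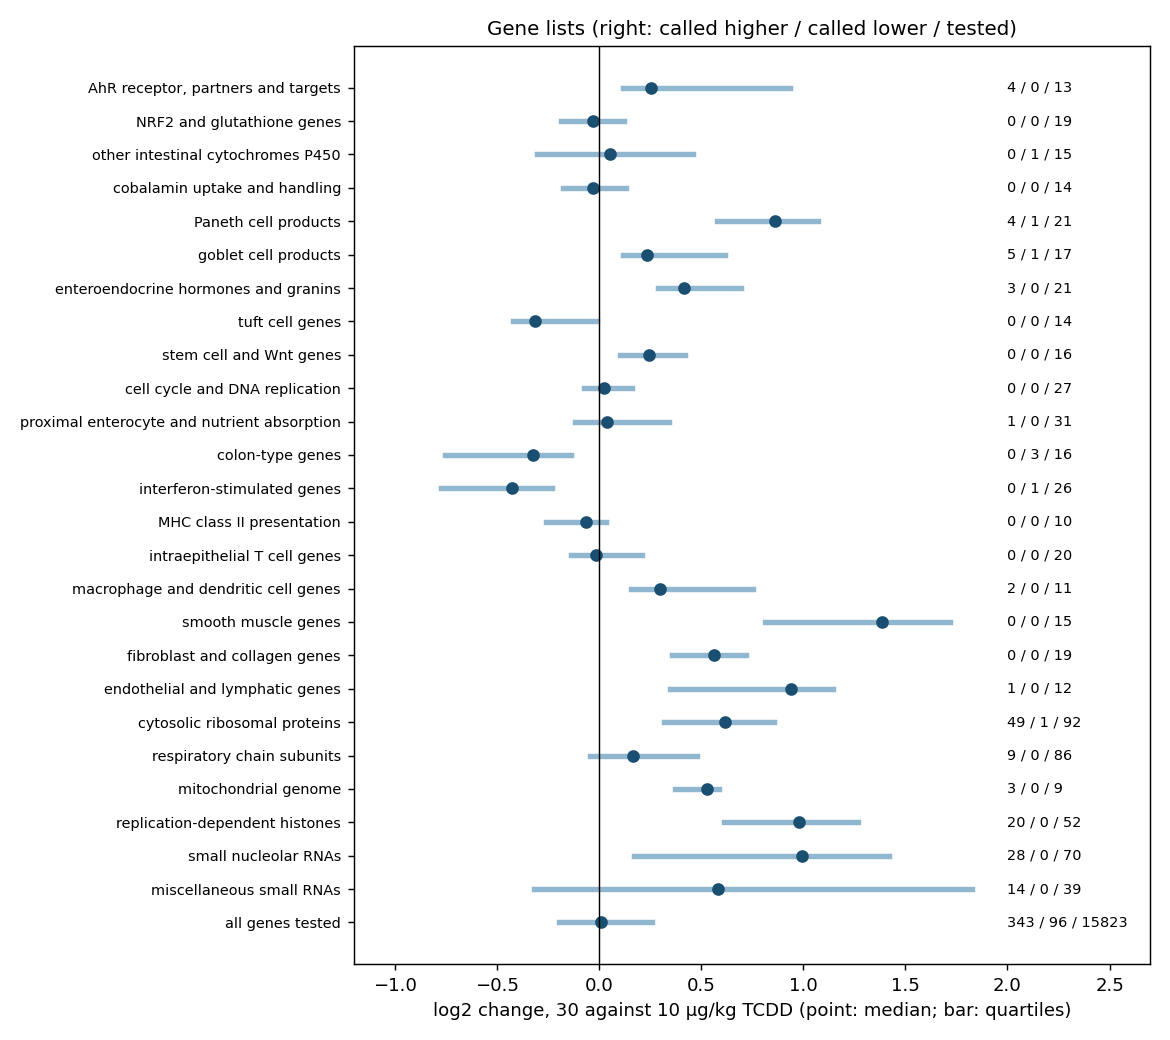
Median (point) and quartiles (bar) of the log2 change between 30 and 10 µg/kg for the tested members of 25 gene lists and for all genes, with counts called higher, called lower and tested at the right. Paneth cell, ribosomal protein, histone and small nucleolar RNA medians lie between 0.62 and 1.00, smooth muscle lies at 1.39 with no call, and all genes tested lie at 0.01.

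Paneth cells, which sit at the crypt base and secrete antimicrobial peptides, gave some of the larger rises among secretory products. Of 21 tested Paneth cell genes 4 were called higher (Defa22, Defa23, Defa21 and Ang4) and 1 lower (Mptx1). The median log2 change was 0.86, 19 of 21 changes were positive and 15 had an unadjusted p under 0.05. These transcripts are short, with a median exon length of 709 nt. With each library's trend over length and GC content removed, the median was 0.60, with 3 called higher and 1 lower.

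Defa22, an alpha-defensin, measured 48.4, 39.0 and 37.1 CPM at 10 µg/kg and 139, 233 and 256 CPM at 30 µg/kg. Vehicle libraries held 38.1 to 62.8 CPM, so the rise appeared at the top dose. The change was 5.04-fold (log2 2.33 ± 0.30, edgeR adjusted p 0.000886). Defa23 went from 10.4, 9.21 and 13.5 CPM to 46.9, 57.2 and 52.6 CPM, and Defa21 from 42.5, 33.2 and 31.4 CPM to 89.3, 184 and 185 CPM. Defa32, outside the list, went from 3.27 to 3.74 CPM at 10 µg/kg to 12.7, 24.1 and 27.4 CPM. These 4 genes share 84.0% to 100% of their 31-base words with other transcripts, mostly other defensins, so how reads divide between them is uncertain.

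Ang4, a ribonuclease with antimicrobial activity, had 95.3, 68.1 and 94.5 CPM at 10 µg/kg and 159, 195 and 194 CPM at 30 µg/kg. This was a log2 change of 1.09 (edgeR adjusted p 0.0394). Lyz1, the lysozyme of Paneth cells, had 684, 483 and 662 CPM and then 1014, 1385 and 1446 CPM without overlap, at an adjusted p of 0.0517. Mmp7, which processes pro-defensins, had 28.4 to 37.5 CPM and then 51.4 to 63.8 CPM (adjusted p 0.0922). Counts of Paneth genes called higher were 9 in the fit with the clock covariate, 14 of 21 in the 6 libraries alone, 10 of 22 without a filter on low counts and 10 of 21 in DESeq2.

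Goblet cells make the mucus layer, and their secreted products differed in how far they moved. Of 17 tested genes 5 were called higher (Spink4, Zg16, Guca2a, Tff3 and Atoh1) and 1 lower (Retnlb), with a median log2 change of 0.24. Spink4, a protease inhibitor, measured 56.6, 57.0 and 66.0 CPM at 10 µg/kg and 175, 148 and 150 CPM at 30 µg/kg. Its log2 change was 1.40 ± 0.15 (edgeR adjusted p 0.000209). Vehicle lay between, at 66.5 to 86.3 CPM.

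Zg16, a lectin of the mucus, went from 786, 788 and 884 CPM to 1868, 2183 and 2109 CPM, with vehicle between 912 and 1270 CPM. The change was 2.51-fold and the groups were apart, though an antisense gene overlaps it. Tff3, the trefoil factor of goblet cells, had 356 to 446 CPM and then 619 to 662 CPM (log2 0.74, adjusted p 0.00883). Atoh1, the transcription factor that specifies secretory cells, had 17.9 to 19.1 CPM and then 26.6 to 30.6 CPM (log2 0.62, adjusted p 0.0156). Guca2a, encoding guanylin, was called at an adjusted p of 0.0483, which was lost when any 1 library was left out.

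The gel-forming mucin Muc2 had 3735 to 4215 CPM at 10 µg/kg and 4272 to 4565 CPM at 30 µg/kg (log2 0.18, adjusted p 0.494). Removal of length and GC trends left 2 goblet genes called higher and 1 lower, and a median of 0.22. Leaving out replicate 2 of 10 µg/kg left 2 called higher and none lower.

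Enteroendocrine cells secrete peptide hormones, and 3 of 21 tested genes were called higher and none lower, with a median log2 change of 0.41. Secretin (Sct) had 14.0, 14.7 and 17.4 CPM at 10 µg/kg and 23.9, 28.4 and 27.5 CPM at 30 µg/kg, with 12.3 to 14.9 CPM in vehicle. Neurotensin (Nts) went from 12.0 to 13.2 CPM to 19.1, 27.4 and 21.5 CPM, where vehicle held 15.2 to 21.1 CPM. Cholecystokinin (Cck) went from 7.62 to 10.3 CPM to 12.7 to 14.8 CPM. In each of the 3 the doses did not overlap. With length and GC trends removed 1 of the 3, Nts, was still called, and without replicate 2 of 10 µg/kg 1 of 21 was. The call of Cck was lost in 5 of the 6 fits that left out a library.

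The other epithelial lists given next held fewer calls. None of 14 tuft cell genes, 16 stem cell and Wnt genes, 27 cell cycle genes or 14 villus tip genes was called by edgeR, with medians of −0.31, 0.24, 0.03 and −0.00139 and with 4, 3, 1 and 1 genes at an unadjusted p under 0.05. Of 31 genes of nutrient absorption 1 was called, Apoc3, an apolipoprotein, at 224 to 240 CPM and then 330 to 444 CPM (log2 0.76, adjusted p 0.0252). That call was lost with length and GC trends removed and in 5 of the 6 fits that left out a library.

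**Figure D3:**
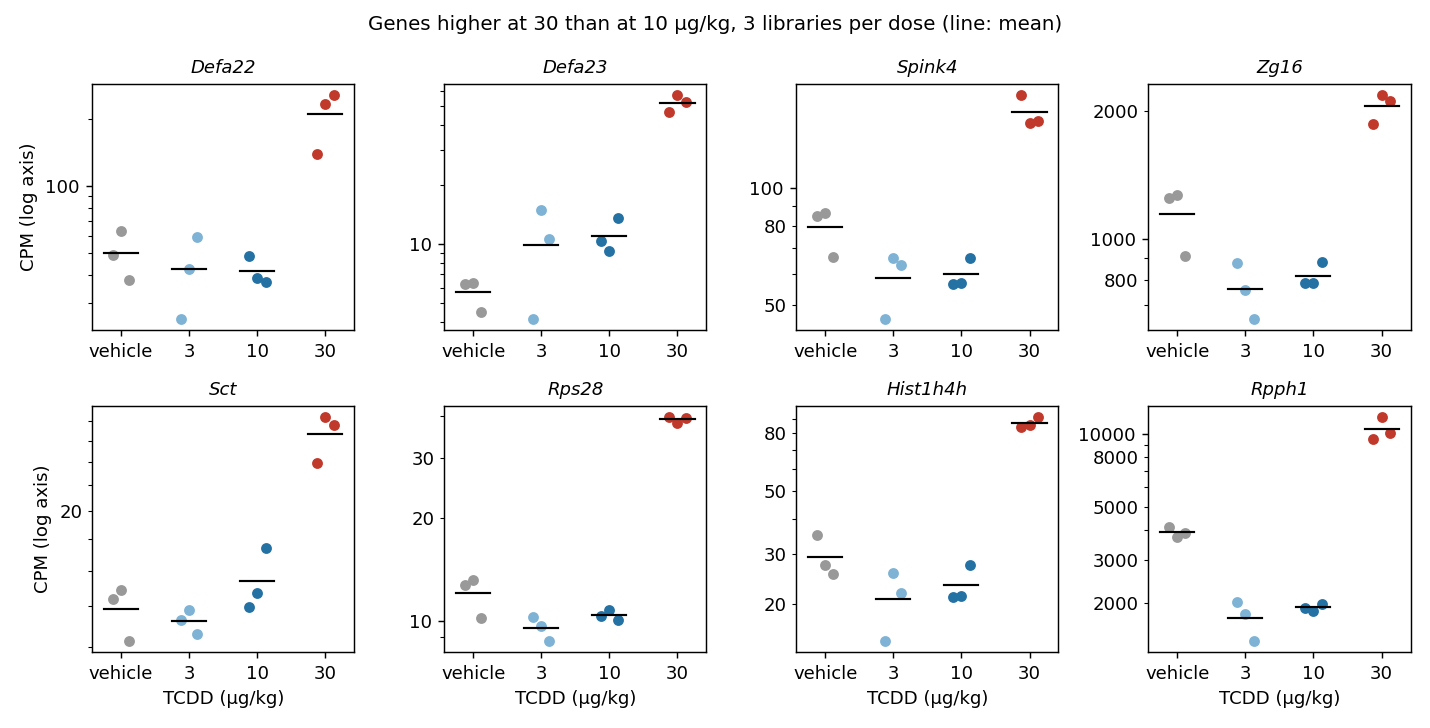
CPM on a log axis against TCDD dose for 8 genes called higher at 30 than at 10 µg/kg, with 1 point per library (3 per dose) and a line at the mean. In each the 3 libraries at 30 µg/kg lie above those of every other group, and Rpph1 at 3 and 10 µg/kg lies below vehicle.

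Many genes of cytosolic ribosomal proteins rose. Of 92 genes whose symbol begins with Rpl or Rps, 49 were called higher and 1 lower, with a median log2 change of 0.62 and 81 positive changes. The prefix also took in 9 S6 kinase genes, which are not ribosomal, and none of these 9 was called. Without them 49 of 83 were higher, with a median of 0.69. With length and GC trends removed 39 of 92 were higher and the median was 0.48, and leaving out any 1 library left 42 to 48 called higher and none lower.

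Rps28 had 10.4, 10.8 and 10.1 CPM at 10 µg/kg and 39.7, 38.1 and 39.3 CPM at 30 µg/kg, beside 10.2 to 13.2 CPM in vehicle. The change was 3.74-fold (log2 1.91 ± 0.11, edgeR adjusted p 2.46e-06). Rpl41 had 98.2, 87.7 and 106 CPM and then 328, 328 and 312 CPM, and Rps26 had 31.3 to 39.8 CPM and then 113 to 120 CPM. Spread within each dose was small beside the distance between them. These genes have processed copies elsewhere in the genome, and 15.1% to 23.2% of their 31-base words occur in other transcripts. The fall was that of Rps12-ps3, a copy that shares all its words with other transcripts.

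Subunits of the respiratory chain encoded in the nucleus moved less, with 9 of 86 called higher, none lower and a median of 0.17. Ndufa3, of complex I, had 48.7 to 56.8 CPM at 10 µg/kg and 89.3 to 100.3 CPM at 30 µg/kg (log2 0.86 ± 0.09, edgeR adjusted p 0.000287). Uqcr10, of complex III, had 33.1 to 44.4 and then 65.4 to 74.1 CPM. Removal of length and GC trends left 4 called and a median of 0.03. Leaving out replicate 2 of 10 µg/kg gave 6 calls and leaving out replicate 3 of 10 µg/kg gave 16.

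Of 9 protein genes of the mitochondrial genome 3 were called higher, and all 9 changes were positive with a median of 0.53. The short mt-Atp8, a subunit of ATP synthase, had 385, 386 and 428 CPM and then 965, 823 and 825 CPM (log2 1.12 ± 0.11, edgeR adjusted p 0.000128). mt-Nd1 had 2475 to 3009 CPM and then 4267 to 4403 CPM. After removal of length and GC trends 4 of the 9 were called higher and the median was 0.51. Leaving out replicate 2 of 10 µg/kg left 1 call, that of mt-Atp8.

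Replication-dependent histone genes, whose transcripts end in a stem-loop rather than a poly(A) tail, gave 20 of 52 called higher and none lower. The median log2 change was 0.98 and 51 of 52 were positive. Hist1h4h had 21.3, 21.4 and 27.6 CPM at 10 µg/kg and 84.3, 85.4 and 91.2 CPM at 30 µg/kg, beside 25.5 to 35.2 CPM in vehicle. Its log2 change was 1.89 ± 0.18 (edgeR adjusted p 9.79e-05). None of the 27 cell cycle genes was called. Removal of length and GC trends left 11 histone genes called and a median of 0.44. Leaving out 1 library gave 8 to 18 calls, fewest without replicate 2 of 10 µg/kg. Hist1h4h has 220 of its 440 31-base words in common with other transcripts, mainly of histone H4 genes.

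Among small noncoding RNAs the classes differed. Of 70 tested small nucleolar and small Cajal body RNAs 28 were called higher and none lower, with a median log2 change of 0.995. Of 39 miscellaneous small RNAs 14 were higher and none lower, with a median of 0.58. Small nuclear RNAs gave 2 of 32 higher and 2 lower, with a median of −0.07. After removal of length and GC trends the nucleolar and miscellaneous classes had 13 and 7 higher, with medians of 0.56 and 0.09. Leaving out 1 library gave 16 to 24 and 9 to 11 higher.

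Rpph1, the RNA component of ribonuclease P, which trims transfer RNA precursors, had 1913, 1855 and 1976 CPM at 10 µg/kg and 9492, 11740 and 10070 CPM at 30 µg/kg. Vehicle libraries held 3753 to 4130 CPM and those of 3 µg/kg 1391 to 2009 CPM, so both lower doses lay below vehicle and 30 µg/kg above it. The change was 5.45-fold (log2 2.45 ± 0.15, edgeR adjusted p 2.46e-06), and 70.2% of its words occur in other transcripts. Rn7s6, a 7S RNA, had 4.61 to 5.73 CPM and then 23.6 to 31.6 CPM, with vehicle at 13.5 to 17.9 CPM. Gm25776, a small nucleolar RNA, had 1.60 to 2.38 CPM, then 10.5 to 17.0 CPM, with vehicle at 9.49 to 19.9 CPM.

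Rpph1 was among 15 genes called lower at 10 µg/kg against vehicle and called higher again at 30 against 10 µg/kg. Others, named after their values were seen, were Rmrp, Rn7s6, Vaultrc5, Gm25776, the ribosomal RNA gene CT010467.1 and Hist2h4. Over all 15 genes the median log2 change was −1.198 at 10 µg/kg against vehicle, 1.89 from 10 to 30 µg/kg and 0.16 at 30 µg/kg against vehicle. The opposite signs of the changes to and from 10 µg/kg follow from how these genes were chosen. Of the 15, 5 were called higher than vehicle at 30 µg/kg, Rpph1, Rmrp, Rn7s6 and Hist2h4 among them. CT010467.1 measured 2962 to 3298 CPM at 10 µg/kg, 5166 to 6403 CPM at 30 µg/kg and 6333 to 8989 CPM in vehicle. Here 10 µg/kg was lowest and 30 µg/kg overlapped vehicle.

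These groups of short transcripts moved alongside a genome-wide relation to length. Protein-coding genes with under 600 nt of exon had a median log2 change of 0.78 and 32 of 92 called higher. The median was 0.33 from 600 to 1000 nt, 0.14 from 1000 to 2000 nt, 0.04 from 2000 to 4000 nt, −0.02 from 4000 to 8000 nt and −0.05 above. Over the genes called higher the median exon length was 1394 nt, beside 2851 nt for those lower and 3991 nt for all tested. After removal of the length and GC trend, 287 genes were called, 201 higher and 86 lower. The part of length and of the share of multiply aligned reads in the Paneth, ribosomal, histone and small RNA results was not tested further.

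**Figure D4:**
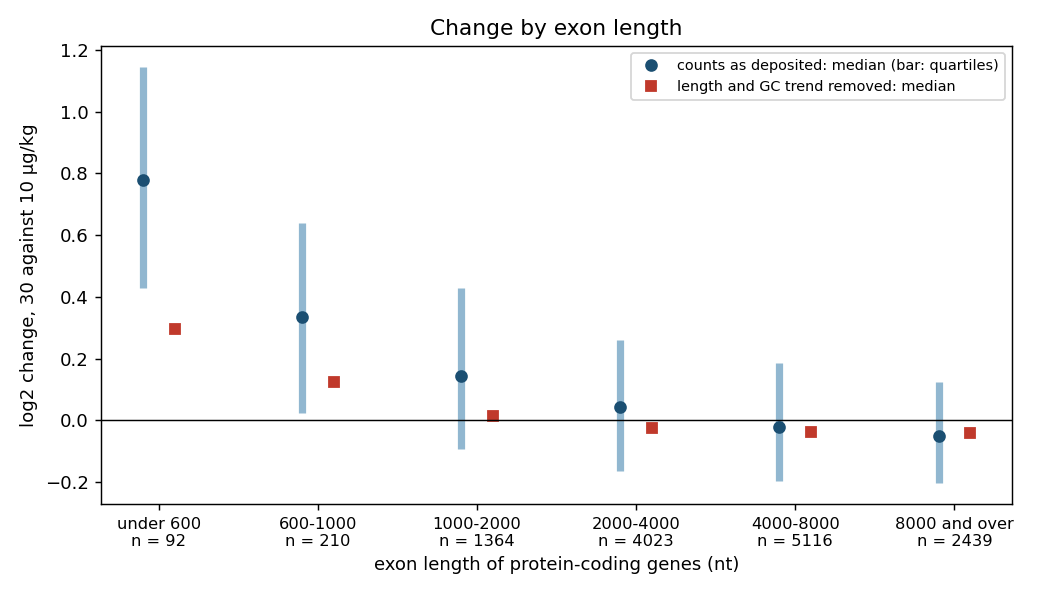
Median log2 change between 30 and 10 µg/kg by exon length class of protein-coding genes (nt), for counts as deposited (circles, bars for quartiles) and with length and GC trends removed (squares). The medians run from 0.78 under 600 nt to −0.05 at 8000 nt and over, and the shortest class lies at 0.30 with the trend removed.

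The falls were led by genes present at 10 µg/kg and low in every other group. Of the 96 genes lower at 30 µg/kg, 25 had been called higher at 10 µg/kg against vehicle and none lower. Their median log2 change was 3.39 at 10 µg/kg against vehicle, −3.29 from 10 to 30 µg/kg and 0.05 at 30 µg/kg against vehicle. Opposite signs in the comparisons that use the libraries of 10 µg/kg follow from how these genes were chosen. Of these 25, 15 had a mean count under 50 in the 6 libraries.

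Car1, a carbonic anhydrase abundant in the colon (chr3:14766216-14808368), had 774, 857 and 714 counts at 10 µg/kg, or 55.7, 62.2 and 43.7 CPM. It had no count in any library at 30 µg/kg, 3 µg/kg or vehicle. Against the floor of 3 counts per library the level at 30 µg/kg was at least 202-fold lower (edgeR adjusted p 2.67e-05). About 20.1% of its words are shared with a gene model, Gm5843.

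Tgm3, a transglutaminase of squamous and colonic epithelium, had 9.72, 8.78 and 10.5 CPM at 10 µg/kg and 0.153, 0.0889 and 0.0548 CPM at 30 µg/kg. Slc6a14, an amino acid transporter, had 5.40, 7.04 and 6.61 CPM and then a total of 2 counts over the 3 libraries at 30 µg/kg. The ratio of its pooled counts was 156 (95% exact interval 42.9 to 1297, counting error only). Aqp8, a water channel of colonocytes, had 4.72 to 5.62 CPM and then 0.0889 to 0.821 CPM, and 1810065E05Rik had 13.9 to 17.9 CPM and then 1.51 to 1.99 CPM. In all 4 the libraries at 10 µg/kg were the high ones, and vehicle stayed at or below 1.81 CPM. At 3 µg/kg Slc6a14 had 1.17 to 1.70 CPM and 1810065E05Rik 2.98 to 4.17 CPM. St6galnac6, a sialyltransferase, had 6.25 to 9.72 CPM and then 0.821 to 1.33 CPM.

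Of the secretory products that went the other way, Mptx1, a mucosal pentraxin, had 2.95, 3.99 and 3.43 CPM at 10 µg/kg and a total of 3 counts at 30 µg/kg, a pooled ratio of 56.5 (95% exact interval 19.0 to 277). Retnlb, a goblet cell resistin-like protein, had 0.612 to 1.01 CPM and no count at 30 µg/kg, at least 3.03-fold lower against the floor, and its call was lost when any 1 library was left out. Atp12a, a proton pump of the colon, and Cyp2d34, both named after their values were seen, were also without a count at 30 µg/kg, at least 6.62-fold and 4.83-fold lower.

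Of 16 colon-type genes tested, 3 were called lower (Car1, Aqp8 and Slc6a14) and none higher. Changes were negative in 13 of the 16, with a median log2 change of −0.32 from 10 to 30 µg/kg and of 0.34 at 10 µg/kg against vehicle. Summed over all listed members the level was 788 to 844 CPM at 10 µg/kg, 608 to 655 CPM at 30 µg/kg and 682 to 729 CPM in vehicle, so 10 µg/kg lay above both. This list, like the others, was chosen with earlier results of these data known, so these values are description only. Slc26a3, a chloride exchanger of colonocytes, had 180 to 208 CPM at 10 µg/kg and 153 to 189 CPM at 30 µg/kg. The distal factor Hoxb13 did not pass the filter, with 0.363 to 0.980 CPM at 10 µg/kg and no count at 30 µg/kg, and Hoxd10 was at 0 in all 6 libraries. Hoxb9, a posterior homeobox gene outside the list and named after its values were seen, was called lower, with 1.15 to 1.52 CPM at 10 µg/kg and a total of 2 counts at 30 µg/kg (pooled ratio 32.9, 95% exact interval 8.72 to 278). The part of tissue from further along the gut in these values was not tested.

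**Figure D5:**
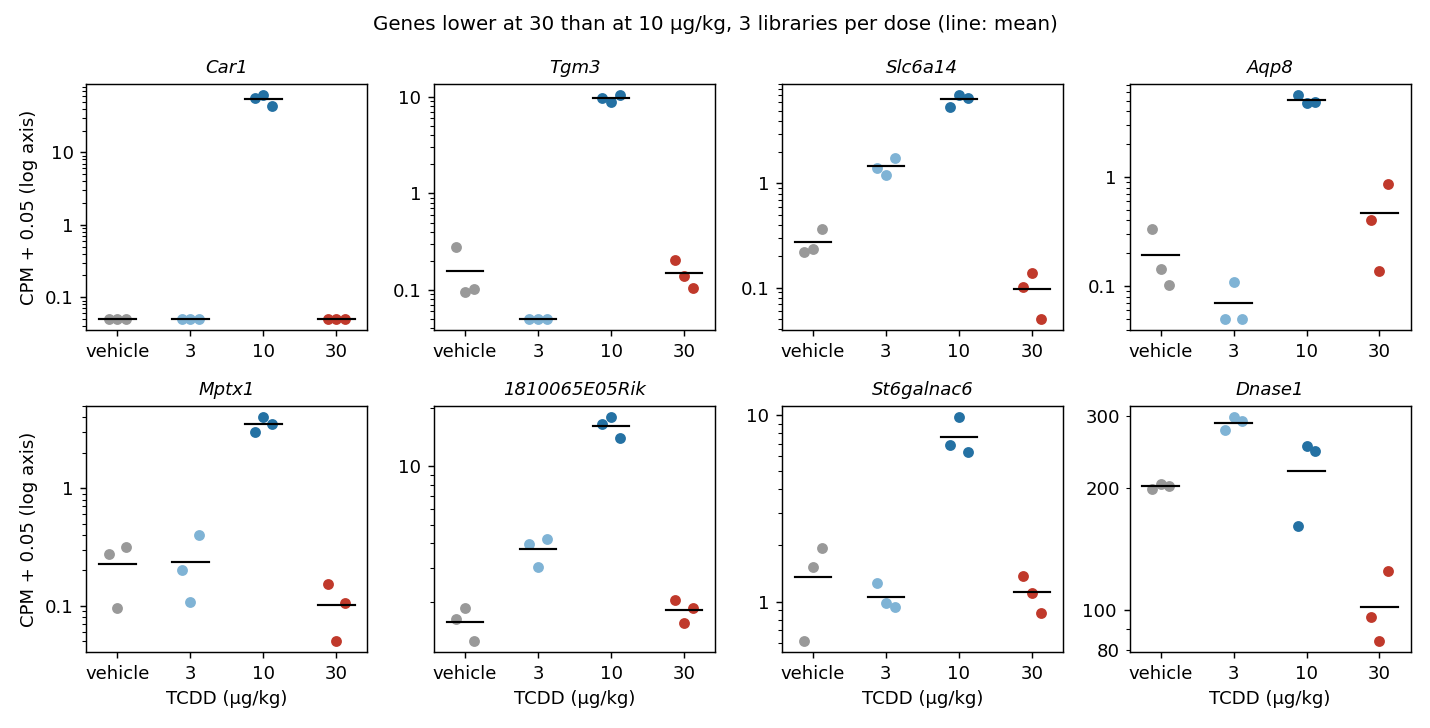
CPM plus 0.05 on a log axis against TCDD dose for 8 genes called lower at 30 than at 10 µg/kg, with 1 point per library (3 per dose) and a line at the mean. Car1, Tgm3, Aqp8, Mptx1 and St6galnac6 are high in the 3 libraries at 10 µg/kg alone, whereas Dnase1 lies lowest at 30 µg/kg.

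Other falls took the top dose below vehicle or back to it. Dnase1, a secreted endonuclease, measured 161, 254 and 247 CPM at 10 µg/kg and 96.3, 84.1 and 125 CPM at 30 µg/kg, with 199 to 204 CPM in vehicle. The change was 2.17-fold lower (log2 −1.11 ± 0.17, edgeR adjusted p 0.00256), and an antisense gene overlaps it. Aldh1a1, which makes retinoic acid, had 96.3 to 119 CPM and then 62.6 to 71.8 CPM, below the vehicle range of 94.3 to 112 CPM. It was the only called member of 13 vitamin A and retinoid genes tested. Of these genes 10 had positive and 3 negative changes, with a median log2 change of 0.21. Zyg11a had 4.54 to 5.51 CPM and then 2.20 to 2.63 CPM.

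Cyp2c55, a cytochrome P450, had 78.7, 85.5 and 127 CPM and then 27.5, 27.6 and 63.1 CPM (log2 −1.30 ± 0.33, edgeR adjusted p 0.0421). It was 1 of 15 other intestinal P450 genes tested and the only 1 called, and the call was lost in 8 of the 15 other settings. Gsdmc2, a gasdermin, had 7.91 to 11.4 CPM and then 2.49 to 5.20 CPM, with 63.9% of its words shared with other gasdermin genes, and Gcnt1, a mucin-type glycosyltransferase, had 6.37 to 10.2 CPM and then 3.56 to 4.22 CPM. Absence of overlap between the groups was a condition for naming these genes. Siglecf and Ttc25 were called lower, in both cases with the call lost when any 1 library was left out, and Dcbld2 lost its call in 3 such fits.

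Interferon-stimulated genes had mostly negative changes, although 1 of 26 was called. Ifit1, an antiviral RNA-binding protein, had 71.6, 57.3 and 62.9 CPM at 10 µg/kg and 45.1, 26.6 and 39.2 CPM at 30 µg/kg, with 58.3 to 65.9 CPM in vehicle (log2 −0.78 ± 0.19, edgeR adjusted p 0.0386). The median of the list was −0.42, with 24 of 26 changes negative and 10 at an unadjusted p under 0.05. Rsad2 had 23.1 to 27.7 CPM and then 8.26 to 15.4 CPM without overlap, at an adjusted p of 0.0793. In the fit with the clock covariate 5 were called lower. The call of Ifit1 was lost with length and GC trends removed and in 5 of the 6 fits that left out a library.

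Genes of cells beneath the epithelium had positive changes in most cases, but few passed. None of 15 smooth muscle genes was called by edgeR, though 12 had an unadjusted p under 0.05, 14 were positive and the median log2 change was 1.39, the same list having a median of −1.63 at 10 µg/kg against vehicle. Myh11, a smooth muscle myosin, had 12.2, 16.2 and 9.19 CPM at 10 µg/kg, 37.3, 57.0 and 13.5 CPM at 30 µg/kg and 25.3 to 92.6 CPM in vehicle. The groups overlapped, with replicate 3 of 30 µg/kg the low library. The summed level of the list overlapped too, at 568 to 646 CPM at 10 µg/kg, 612 to 731 CPM at 30 µg/kg and 617 to 967 CPM in vehicle. In the fit with the clock covariate 4 smooth muscle genes were called higher.

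Of 12 endothelial genes 1 was called, Vwf, the clotting factor of vessel walls, at 5.76, 6.09 and 3.00 CPM and then 12.6, 12.3 and 11.9 CPM. This call was lost when any 1 library was left out. The list median was 0.94, and its summed level was 27.3 to 48.2 CPM at 10 µg/kg and 65.5 to 70.7 CPM at 30 µg/kg. Vehicle held 40.0 to 68.8 CPM, which overlapped 30 µg/kg. None of 19 fibroblast and collagen genes was called by edgeR (median 0.56, 4 at an unadjusted p under 0.05). The fibroblast list had a median of −0.77 at 10 µg/kg against vehicle. It summed to 334 to 420 CPM at 10 µg/kg and 449 to 518 CPM at 30 µg/kg. Vehicle lay above both, at 527 to 620 CPM.

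Of 11 macrophage and dendritic cell genes 2 were called higher and none lower, with a median of 0.30. C1qa, a complement subunit made by macrophages, had 10.2, 7.84 and 6.68 CPM and then 14.4, 17.9 and 19.7 CPM (log2 1.08 ± 0.18, edgeR adjusted p 0.00496). Csf1r, their growth factor receptor, had 15.8 to 25.1 CPM and then 33.1 to 35.8 CPM, a call lost in 2 of the 6 fits that left out a library. The summed level of the list was 66.5 to 100 CPM at 10 µg/kg, 115 to 121 CPM at 30 µg/kg and 86.6 to 114 CPM in vehicle. The part of these cell types in the results for epithelial genes was not tested.

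The lymphocyte lists held few calls in any setting named here. None of 20 intraepithelial T cell genes, 19 B and plasma cell genes or 10 genes of MHC class II presentation was called by edgeR, with medians of −0.02, −0.52 and −0.06 and with 3, 3 and 0 at an unadjusted p under 0.05. Immunoglobulin gene segments, taken by annotation, gave 2 of 139 higher with a median of 0.64. DESeq2 called 1 B and plasma cell gene higher, with 9 of 139 segments higher and 1 lower. In the 6 libraries alone 1 B and plasma cell gene and 9 of 107 segments were called higher and 1 segment lower, and without a filter 1 gene and 13 of 224 segments were higher and 3 segments lower.

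Pancreatic acinar enzymes served as markers of another tissue. Of 9 tested 1 was called higher, Pnliprp2, a lipase, at 43.9, 21.6 and 23.5 CPM and then 66.7, 81.4 and 62.2 CPM (log2 1.24 ± 0.24, edgeR adjusted p 0.0135). Leaving out 1 library ended this call in 3 of 6 such fits. Of the 9 genes, 4 had positive and 5 negative changes, with a median log2 change of −0.08 and 5 at an unadjusted p under 0.05. Defining acinar genes were at or near 0, with Prss2, Cpb1 and Cela2a without a count at 30 µg/kg. None of the 4 liver genes tested was called by edgeR, with 1 at an unadjusted p under 0.05, and no red blood cell gene passed the filter.

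Cobalamin uptake and handling, a subject of the study, showed no call between these doses. None of 14 genes passed the test by edgeR and none had an unadjusted p under 0.05, with a median log2 change of −0.03. Cubn, the ileal receptor of intrinsic factor-cobalamin, had 707, 221 and 185 CPM at 10 µg/kg, 385, 341 and 158 CPM at 30 µg/kg and 1109 to 1452 CPM in vehicle. Both doses lay below vehicle and overlapped each other. Its partner Amn had 73.7 to 92.5 CPM and then 94.5 to 118 CPM, without overlap, at an adjusted p of 0.267.

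The oxidant response was also without a call. Of 19 NRF2 and glutathione genes none was called by edgeR, 2 had an unadjusted p under 0.05 and the median was −0.03. Gclc, which limits glutathione synthesis, had 33.7 to 66.5 CPM and then 28.2 to 63.2 CPM. None of 25 chaperone genes of the endoplasmic reticulum, 20 genes of cholesterol synthesis or 19 PPAR-alpha genes was called by edgeR, with 4, 2 and 4 at an unadjusted p under 0.05. Of 10 iron genes 1 was called, Fth1, ferritin heavy chain, at 288 to 382 CPM and then 508 to 608 CPM (log2 0.68 ± 0.15, adjusted p 0.0200). The iron list had 7 negative and 3 positive changes, with a median of −0.14. Lcn2, a siderophore-binding defense protein, was called at 0.290 to 0.857 CPM and then 1.09 to 2.93 CPM (adjusted p 0.0454). It belongs to 17 tested genes of inducible antimicrobial defense, of which 1 was called higher and 1, Retnlb, lower. In that list 12 changes were negative and 5 positive, with a median of −0.43. The calls of Fth1 and Lcn2 were each lost in 5 of the 6 fits that left out a library.

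The largest rises among protein-coding genes also included some of uncertain identity. Eif4ebp3, a translation repressor, had 1.66, 1.67 and 0.980 CPM and then 8.22, 10.8 and 9.09 CPM (log2 2.71 ± 0.43, edgeR adjusted p 0.00409), and 66.4% of its words occur in another gene model. Romo1, a mitochondrial inner membrane protein, had 2.45 to 3.63 CPM and then 12.1 to 14.2 CPM, with 6.67 to 10.3 CPM in vehicle. The predicted genes Gm10801, Gm10717, Gm10720, Gm11168 and Gm10715 rose together by 4.45-fold to 5.61-fold. They share 36.2% to 94.4% of their words with each other or with related models, so they are not separate observations, and each lost its call in 4 or 5 of the 6 fits that left out a library. Gm10801 had 11.7 to 18.7 CPM at 10 µg/kg, 84.9, 137 and 40.9 CPM at 30 µg/kg and 12.4 to 56.4 CPM in vehicle.

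Among longer noncoding RNAs, 20 of 1084 were called higher and 6 lower, a share of 2.40% beside 2.77% of all genes. 2010103J01Rik had 29.7 to 32.8 CPM and then 64.8, 96.0 and 68.8 CPM (log2 1.28 ± 0.16, edgeR adjusted p 0.000626). Of 46 microRNA genes 1 was higher and 3 lower, the lower ones including Mir6240 at 458, 535 and 345 CPM and then 219, 302 and 226 CPM. Leaving out a library ended the call of Mir6240 in 4 of 6 such fits.

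The last lists were also without an edgeR call. They held 14 tight junction genes, 18 circadian clock genes, 7 genes of ileal bile acid handling, 13 regional identity factors, 4 mast cell and granulocyte genes, 4 enteric neuron and glia genes and 12 T cell receptor segments, with 3, 2, 1, 3, 0, 0 and 1 at an unadjusted p under 0.05. DESeq2 and limma-voom also gave 0 calls in every list of 0 edgeR calls, apart from 2 smooth muscle genes, 1 stem cell or Wnt gene and 1 B or plasma cell gene that DESeq2 called higher. The clock list had a median log2 change of 0.51.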

How the data were processed

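RNA sequencing was compared between 3 libraries of 30 µg/kg and 3 of 10 µg/kg TCDD. Per the labels, total RNA was prepared with a commercial mouse kit. The authors deposited, for each library, unnormalized counts for every Ensembl gene. The submitters' processing notes name FastQC 0.11.3, Trimmomatic 0.33, TopHat2 2.1.0, SAMtools 1.2.0, HTSeq 0.6.1, DESeq and GRCm38. The strand setting and annotation release are not given in the sources used here. Entries for reads with no gene, several genes or several alignments were left out of library sizes. Of 46078 genes 45229 matched GENCODE M21 (GRCm38), and the unmatched held 0.749% of counts.

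Counts of all 12 libraries were fitted with edgeR 4.0.16 in R 4.3.3 (filterByExpr, TMM, quasi-likelihood F test, 4 dose groups), and 30 was contrasted with 10 µg/kg. P-values were adjusted by Benjamini-Hochberg over 15823 genes. The fit was tested on simulated data. Standard errors were taken from the F statistic. The study's 1.5-fold limit was kept, and its empirical Bayes posterior was not repeated. The other settings were median-of-ratios scaling, TMM without genes over 1% of a library, no filter, the 6 libraries alone, index or clock score as covariate, removal of length and GC trends, each library left out, DESeq2 1.42.0 and limma-voom 3.58.1.

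The members and lists were chosen with earlier results of these data known. Named genes were all members of the AhR list except 1 that is not reported here, the 12 largest rises and 12 largest falls among protein-coding genes called with a mean count of at least 50 and no overlap, up to 4 called members of each other list, and up to 3 called genes of each noncoding class with the same minimum. Others are values of list members that show a range, or were chosen after their values were seen. Shared sequence is the percentage of a gene's 31-base words found in transcripts of other genes. Intervals and floors cover counting error only, since the reads carry no molecular identifiers.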

Additional observations from a re-analysis of the deposited data

How the results depend on the processing

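The 15 other settings gave 188 to 615 calls beside 439. With length and GC trends removed 287 genes were called, 201 higher and 86 lower, and 260 of them were among the 439. With the clock score as covariate 615 were called, 150 of them lower. Leaving out each library in turn gave 188 to 348 calls, 157 to 257 higher and 31 to 101 lower. The share of higher calls was 78.1%, and 70.0% to 83.5% over the settings. With the library index sequence as a block, 324 genes were called, 254 higher and 70 lower. The labels give no replicate numbers and the index is not said to mark a shared litter or day, so no pairing is assumed. Without a filter 547 were called among 28360 genes, DESeq2 called 601 and limma-voom 421.

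Of 73 named genes called, 38 kept the call in every setting, 14 lost it only when a library was left out and 21 lost it in another setting. None of them changed direction. Among AhR list members that were not called, the log2 change ran over the fits that left out a library from −0.026 to 0.29 for Ahr, −0.045 to 0.21 for Nqo1, −0.017 to 0.42 for Ugt1a6a and −0.012 to 0.36 for Lpcat2. The cause of these shifts was not tested, beyond the loss of samples in fits that leave out a library. A count of 3 is the limit of detection per library, so genes near it are limited by depth.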
